A study of Mus musculus with 30 samples.

Results

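The 10 glycolytic enzyme genes Hk1, Hk2, Gpi1, Pfkl, Pfkp, Aldoa, Pgk1, Eno1, Pkm and Ldha were followed in the colon transcriptome of 30 mice. They were found by gene name in the tables of transcript abundance and by gene identifier in the count table, and all 10 were among the 46078 genes counted. Each mouse gave 1 RNA-seq library, with 6 libraries in each of 5 groups of C57BL/6J animals. CD F and CD M were females and males fed a control diet (CD), and HFD F and HFD M were females and males fed a high-fat diet (HFD), all given vehicle. HFD+E2 M were males on HFD given estradiol (E2) at 0.5 mg per kg body weight. The diets lasted 13 weeks and the injections, 9 in all, were given into the peritoneum over the last 3 weeks. The females kept their ovaries, and no females given E2 were among the groups analysed here. The comparisons asked how sex, diet and E2 in obese males were related to the transcript levels of this pathway.

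Glycolysis breaks glucose down to pyruvate in the cytosol. Hexokinases trap glucose in the cell as glucose 6-phosphate, phosphofructokinase makes the committed step, and pyruvate kinase makes pyruvate, which lactate dehydrogenase can turn into lactate. Colonocytes at the mucosal surface are known to burn butyrate as their main fuel, whereas proliferating cells and immune cells rely more on glucose. Several genes of the pathway are known targets of the transcription factors Hif1a and Myc.

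The counts on genes ranged from 8667177 to 17243712 per library, and the 10 genes took from 0.218% to 0.382% of them. Markers of surface colonocytes and goblet cells were detected in all libraries, with summed levels of 706 to 2082 TPM and 2576 to 7058 TPM (transcript abundance scaled to gene length and to 1 fixed total per library). Markers of stratified squamous epithelium, which lines the anal canal, were high in 4 HFD F libraries (replicates 1, 3, 4 and 5) and 2 HFD M libraries (replicates 2 and 4), with a mean log2 CPM (counts scaled to library size) of 2.51 to 6.34 against -0.92 to 0.30 in the other 24. The 10 smooth muscle markers summed to 2635 to 4089 TPM in CD F and to 4147 to 6888 TPM in CD M, without overlap. In whole tissue, fewer cells of a type and less RNA per cell cannot be told apart.

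The genes lie on 6 autosomes and the X chromosome of GRCm38, by the coordinates of the abundance files. The 2 hexokinase genes are Hk2 (ENSMUSG00000000628, chr6:82725025-82774454, minus strand) and Hk1 (ENSMUSG00000037012, chr10:62268855-62379908, minus strand). Pgk1 (ENSMUSG00000062070) is X-linked, at chrX:106187100-106203699 on the plus strand, and Ldha (ENSMUSG00000063229) lies at chr7:46841475-46855627 on the plus strand. The reads were pairs of 51 bases, so stretches of that length bear on which gene a read can be given to. Matches on either strand were counted, although the kit was stranded, and the other read of a pair was not considered. No stretch of 51 bases in the longest coding transcript of Hk2 occurred in another annotated gene, and 0.0% did in Pfkl. The share was 71.9% for Eno1, mostly with Eno1b and the pseudogene Gm4735, and 67.9% for Pgk1, mostly with the pseudogenes Pgk1-rs7 and Gm5537. It was 33.7% for Pkm, 24.7% for Gpi1, 17.0% for Pfkp (which overlaps Pitrm1), 15.9% for Ldha, 12.9% for Aldoa and 2.5% for Hk1. The counts and the TPM files treated these reads differently. Pgk1-rs7 was listed at 24.7 to 84.9 TPM but had 0 to 4 counts per library, and Gm4735 was listed at 23.7 to 53.5 TPM but had 0 to 4 counts. The levels of Pgk1 and Eno1 are therefore uncertain on both scales.

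Promoters are shown for Hk2, which had an unadjusted p under 0.05 in 3 of the 5 comparisons below, and for Pgk1 and Ldha, which varied together across libraries. The 250 bases before a RefSeq start site (GRCm38.p6) are given 5′ to 3′ on the strand of the gene. Capitals mark ACGTG on either strand, with any flanking C or G that makes CACGTG. Hif1a is known to bind ACGTG or GCGTG, and Myc to bind CACGTG. The windows shown held no GCGTG. The window of Hk2 was chr6:82774455-82774704 on the minus strand, that of Pgk1 chrX:106186850-106187099 on the plus strand and the first of 2 for Ldha chr7:46845554-46845803 on the plus strand.
Hk2: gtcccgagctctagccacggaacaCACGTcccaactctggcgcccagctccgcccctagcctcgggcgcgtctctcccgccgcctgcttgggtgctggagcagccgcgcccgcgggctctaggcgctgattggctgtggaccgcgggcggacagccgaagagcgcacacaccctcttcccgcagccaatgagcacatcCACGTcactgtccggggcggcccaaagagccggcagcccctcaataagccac
Pgk1: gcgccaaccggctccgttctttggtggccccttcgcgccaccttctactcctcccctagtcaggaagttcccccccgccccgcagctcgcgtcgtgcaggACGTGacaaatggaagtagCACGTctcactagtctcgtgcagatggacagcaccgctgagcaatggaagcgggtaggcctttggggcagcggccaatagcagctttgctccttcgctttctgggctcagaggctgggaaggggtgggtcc
Ldha: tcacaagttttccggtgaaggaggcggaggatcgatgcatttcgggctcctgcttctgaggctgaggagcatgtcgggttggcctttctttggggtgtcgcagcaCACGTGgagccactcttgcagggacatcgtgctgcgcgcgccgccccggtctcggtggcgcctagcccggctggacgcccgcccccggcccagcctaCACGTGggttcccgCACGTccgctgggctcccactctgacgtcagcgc
ACGTG was found 2 times in the Hk2 window, 2 times in the Pgk1 window and 5 times in the first Ldha window, where the 2 copies of the palindrome CACGTG count once for each strand. The second Ldha window, chr7:46846832-46847081, held no ACGTG and 1 GCGTG. Of 32851 such mouse windows, 16.6% held ACGTG on either strand and 6.0% held CACGTG. The single Gpi1 window, chr7:34230337-34230586, held neither ACGTG nor GCGTG, while 38.6% of all windows held one of them. The full palindrome of the estrogen response element was in none of the windows of the 10 genes and in 0.1% of all windows. A match is a string of letters, not a site shown to be bound.

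The 10 transcripts differed in level by more than an order of magnitude. Aldoa, the aldolase that splits fructose 1,6-bisphosphate, had the highest median over the 30 libraries (464 TPM, range 363 to 586). It was followed by Pkm, the muscle-type pyruvate kinase also used by epithelium (433 TPM, 301 to 535), and Ldha, the lactate dehydrogenase subunit that favours lactate (407 TPM, 265 to 677). Neighbours among these 3 overlapped: Aldoa was above Pkm in 25 of 30 libraries and Pkm above Ldha in 19 of 30. Gpi1, the glucose phosphate isomerase, lay below Ldha in all 30 libraries (209 TPM, 142 to 251), and Pfkp, the platelet-type phosphofructokinase, lay below Gpi1 in all 30 (122 TPM, 89.9 to 156).

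Eno1, Pgk1, Hk1, Pfkl and Hk2 had lower medians. The places of Eno1 and Pgk1 are uncertain because of the reads shared with pseudogenes. Eno1, the enolase of most tissues, was at a median of 81.2 TPM (55.9 to 124). Pgk1, the phosphoglycerate kinase that makes the first ATP of the pathway, was at 64.4 TPM (39.6 to 155), with the highest library 3.91 times the lowest, the widest span of the 10. Hk1, the hexokinase of most tissues, was at 47.9 TPM (29.1 to 65.9), and Pfkl, the liver-type phosphofructokinase, at 39.0 TPM (20.8 to 54.0). Hk2, the inducible hexokinase, was lowest (27.1 TPM, 18.9 to 38.7) and lay below Pfkl in 28 of 30 libraries.

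**Figure D1:**
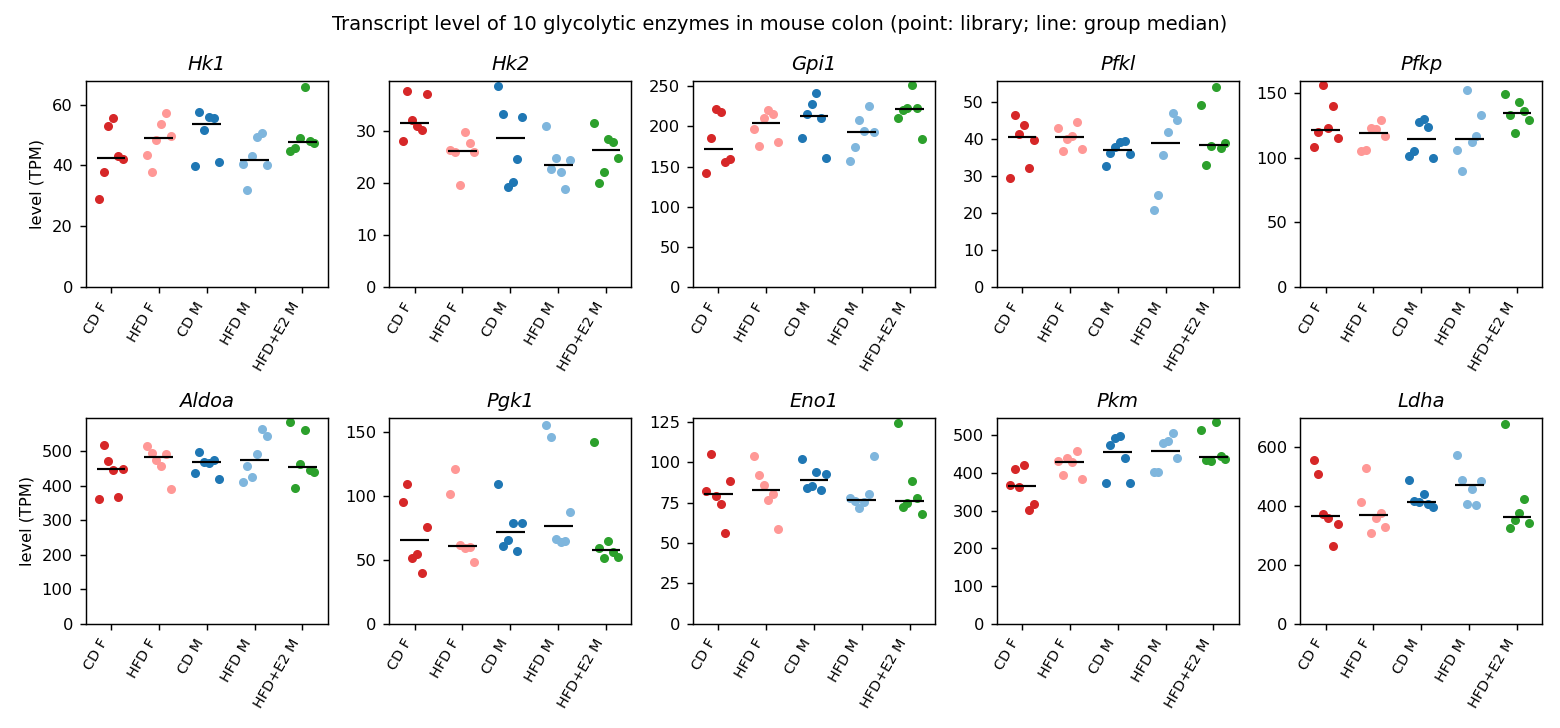
Transcript level (TPM, from 0) of the 10 enzymes in the 5 groups; each point is a library and each line the median of 6. The groups of each comparison overlap for all 10 enzymes on this scale, and single high points stand apart for Pgk1 (142 TPM) and Ldha (677 TPM) in HFD+E2 M.

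Where an enzyme has several genes, 1 of them supplied most of the transcript at most steps. Ldha made up 95.4% to 98.9% of the TPM of Ldha and Ldhb, and Pkm 94.4% to 97.0% of that of Pkm and Pklr, the liver and red cell pyruvate kinase. Pfkp made up 65.4% to 79.6% of the phosphofructokinases and Pfkl 15.6% to 27.6%, with Pfkm, the muscle type, at 4.30 to 13.4 TPM. The hexokinases were divided more evenly, and so were the enolases as listed. Hk2 made up 26.7% to 49.8% of Hk1 and Hk2, with group medians of 44.0% in CD F, 33.7% in CD M, 35% in HFD F, 37.1% in HFD M and 32.7% in HFD+E2 M. Eno1 made up 37.5% to 58.5% of the enolases, with Eno3, the muscle enolase, at 53.4 to 125 TPM. This share leaves out the 23.7 to 53.5 TPM listed for the pseudogene Gm4735, so the division of the enolases is uncertain. Of the other isozymes, Pklr had a median of 19.2 TPM, Ldhb 10.2, Aldoc 8.87 and Eno2 2.47. Hk3 was near 0, with a median of 0.135 TPM, and Pgk2, the testis phosphoglycerate kinase, had no count in any library. Of the steps without a member here, triose phosphate isomerase (Tpi1) had a median of 161 TPM, Gapdh 180 and Pgam1 34.2.

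Differences between groups were tested on the counts with edgeR's quasi-likelihood test in each pair of groups, with Benjamini-Hochberg adjustment over all genes tested. A gene was called at an adjusted p under 0.05. The study's threshold, an unadjusted p under 0.05 and a change of more than 0.4 on the log2 scale, was counted separately. Levels are given below as CPM scaled by the trimmed mean of M-values, the scale nearest to that test. None of the 10 genes was called in any of the 5 comparisons, and the smallest adjusted p was 0.237. With DESeq2, 1 was called, Hk2 with E2, among 38 of all genes in that comparison. At an unadjusted p under 0.05, the 10 genes gave 1 difference between CD F and CD M, 0 between HFD F and HFD M, 1 between HFD F and CD F, 0 between HFD M and CD M and 4 between HFD+E2 M and HFD M.

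**Figure D2:**
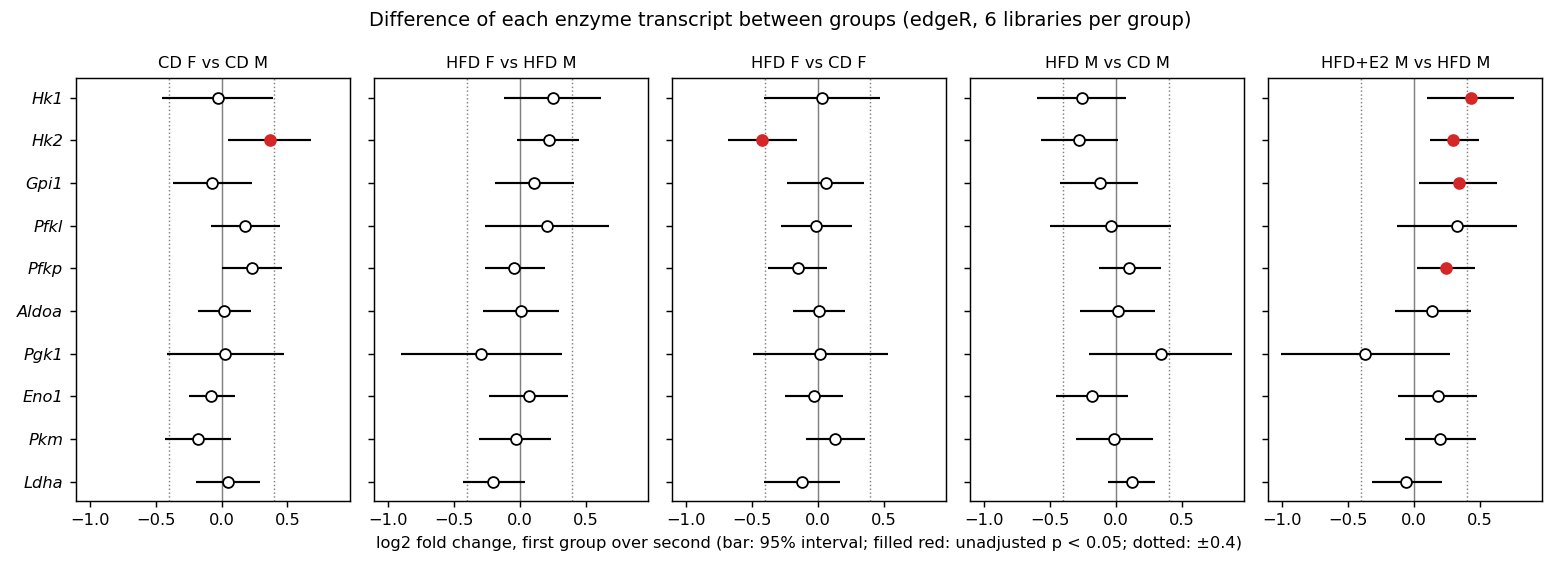
Log2 fold change of each enzyme in the 5 comparisons, first group over second, with its 95% interval from edgeR (6 libraries per group); filled points have an unadjusted p under 0.05 and dotted lines mark 0.4 in either direction. Hk2 is above 0 in both comparisons of the sexes and with E2, and below 0 on HFD in both sexes, and 8 of 10 points lie above 0 with E2.

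Between the sexes on CD, Hk2 was the member with the largest difference in the counts and was higher in females. Its CPM in CD F ranged from 112 to 165 with a median of 147, and in CD M from 78.9 to 142 with a median of 118. The ranges overlapped. The log2 fold change was 0.37 (standard error 0.15, 95% interval 0.05 to 0.68, unadjusted p = 0.0246 and adjusted p = 0.237 from edgeR), so Hk2 was not called. Pfkp came next, at 220 to 311 CPM in CD F (median 268) and 189 to 269 in CD M (median 233), and differed by 0.23 on the log2 scale (standard error 0.11, edgeR adjusted p = 0.348). Pfkl was also above 0 (0.18), and Pkm was the lowest at -0.18, with medians of 631 CPM in CD F and 789 in CD M. For Hk1, Gpi1, Aldoa, Pgk1, Eno1 and Ldha the log2 fold change lay between -0.08 and 0.05. The intervals of the 10 genes reached from -0.45 to 0.68. The order depended on the scale. On log2(TPM + 1), limma gave Hk2 0.25 (unadjusted p = 0.153) and Pkm, the largest in size, -0.28 (unadjusted p = 0.0453). The median of the 10 genes was then -0.13.

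Of all 14922 genes tested between CD F and CD M, 2.92% were called at an adjusted p under 0.05, 14.8% had an unadjusted p under 0.05, 9.15% passed the study's threshold and 2.18% did not overlap between the groups. Against these shares, 0, 1, 0 and 0 of the 10 members did so, and their median log2 fold change was 0.02 against 0.01 for all genes. All 10 smooth muscle markers were lower in CD F at the study's threshold, 6 of them at an adjusted p under 0.05. With the smooth muscle score in the fit, Pfkp was called (log2 fold change 0.63, adjusted p = 0.00406 from edgeR), and so was Gpi1 (0.47, adjusted p = 0.0465), while Hk2 fell to 0.19 (unadjusted p = 0.419). In that fit, 310 of 14922 genes were called. Since the marker levels did not overlap between CD F and CD M, the share of muscle and the sex cannot be told apart in these values. Goblet cell markers were higher in CD F, 4 of the 7 tested at the study's threshold and 2 of them called (median 0.50, summed level 4236 to 5965 TPM in CD F and 2729 to 5471 TPM in CD M), and so were 5 of 9 B cell markers, none called (median 1.36, 14.0 to 66.5 TPM in CD F and 0.887 to 51.3 TPM in CD M). Over the 30 libraries, Spdef, Aggf1 and Map7 had the log2 CPM most like that of Hk2 (Pearson r = 0.68 each, a description). They were named after their values were seen. Spdef, a transcription factor of goblet cells, is itself among the goblet cell markers counted here. The part of goblet cells and B cells in the difference of Hk2 was not tested. Hk2 passed the study's threshold in 4 of the 12 fits that left out 1 library, with values of 0.28 to 0.45 over the 12.

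Between the sexes on HFD, no member had an unadjusted p under 0.05 in the main fit. Hk2 was again higher in females, with 82.7 to 126 CPM in HFD F (median 108) and 88.6 to 103 in HFD M (median 90.9), so that the range of the females enclosed that of the males. The log2 fold change was 0.22 (standard error 0.11, 95% interval -0.02 to 0.45, adjusted p = 0.872 from edgeR). Hk1 stood at 0.25, with 108 to 197 CPM in HFD F and 96.1 to 187 in HFD M, and Pfkl at 0.21. Pgk1 was the lowest, at -0.29 (standard error 0.28, 95% interval -0.90 to 0.32), followed by Ldha at -0.20. Of 15179 genes tested, 0.0988% were called, 5.09% had an unadjusted p under 0.05, 3.09% passed the study's threshold and 0.362% did not overlap. The median of the members was 0.04 and that of all genes 0.01.

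On HFD in females, Hk2 was lower than on CD and was the 1 member past the study's threshold. It ranged from 82.7 to 126 CPM in HFD F (median 108) and from 112 to 165 in CD F (median 147), with some overlap. The log2 fold change was -0.42 (standard error 0.12, 95% interval -0.68 to -0.16, unadjusted p = 0.00327 and adjusted p = 0.496 from edgeR), which is 0.747 times the level on CD. In TPM, the group means were 25.9 ± 3.42 (SD, n = 6) on HFD and 32.7 ± 3.86 (SD, n = 6) on CD. The other 9 genes lay between -0.15 (Pfkp) and 0.13 (Pkm), none with an unadjusted p under 0.05. The paralog Hk1 was at 0.03, with 108 to 197 CPM on HFD and 87.7 to 204 on CD.

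Among 15061 genes tested between HFD F and CD F, 0.0199% were called, 5.68% had an unadjusted p under 0.05, 3.67% passed the study's threshold and 0.212% did not overlap, against 0, 1, 1 and 0 of the 10 members. The 4 HFD F libraries with squamous markers bear on this comparison. Without them, only HFD F replicates 2 and 6 were left against CD F, and Hk2 was at -0.44 (unadjusted p = 0.0210 from edgeR). With the squamous score in the fit, Hk2 was at -0.36 (unadjusted p = 0.0616 from edgeR). Hk2 no longer passed the study's threshold without replicate 5 or 6 of CD F or without replicate 1, 2 or 3 of HFD F, when its log2 fold change was as small as -0.36.

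On HFD in males, Hk2 was also lower than on CD, without an unadjusted p under 0.05 in the main fit. It ranged from 88.6 to 103 CPM in HFD M (median 90.9) and from 78.9 to 142 in CD M (median 118), so that all HFD M libraries lay within the range of CD M. The log2 fold change was -0.28 (standard error 0.14, 95% interval -0.57 to 0.02, adjusted p = 0.825 from edgeR). It was -0.37 with the smooth muscle score (unadjusted p = 0.0144 from edgeR) and -0.19 on log2(TPM + 1) (unadjusted p = 0.29 from limma). Hk1 was at -0.26 (standard error 0.16) and Eno1 at -0.18. Pgk1 was the highest at 0.34 (standard error 0.25, 95% interval -0.20 to 0.88), with 34.2 to 90.2 CPM in HFD M and 34.8 to 64.1 in CD M, and Ldha was at 0.12. Of 14991 genes tested, 0% were called at an adjusted p under 0.05, 6.03% had an unadjusted p under 0.05, 2.90% passed the study's threshold and 0.354% did not overlap.

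The response to HFD did not differ detectably between the sexes for any member in the main fit. The interaction of sex and diet, fitted to the 24 libraries of vehicle-treated mice, was -0.15 for Hk2 (standard error 0.19, 95% interval -0.55 to 0.24, adjusted p = 0.883 from edgeR), so that a difference of up to 0.55 on the log2 scale is not excluded. The most negative values were those of Pgk1 (-0.33, standard error 0.38), Pfkp (-0.26, standard error 0.15) and Ldha (-0.25, standard error 0.16), and the highest that of Hk1 (0.28, standard error 0.28). Over 15800 genes, 0% were called and 6.75% had an unadjusted p under 0.05, and 0 of the 10 members did. With DESeq2, no member had an unadjusted p under 0.05 either.

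With E2 in HFD males, both hexokinases, Gpi1 and Pfkp were higher at an unadjusted p under 0.05, and none was called. These 4 genes encode enzymes of the steps from glucose to fructose 1,6-bisphosphate. Pfkl acts there too and had no unadjusted p under 0.05. Hk2 ranged from 104 to 127 CPM in HFD+E2 M (median 113) and from 88.6 to 103 in HFD M (median 90.9), so that each treated mouse lay above each vehicle-treated one. It was the 1 member without overlap. The log2 fold change was 0.30 (standard error 0.09, 95% interval 0.12 to 0.49, unadjusted p = 0.00303 and adjusted p = 0.454 from edgeR). DESeq2 gave Hk2 0.31 with an adjusted p of 0.0492, and over the other ways of fitting it kept its direction. The group mean was 114 CPM with E2, 92.5 CPM in HFD M and 112 CPM in CD M.

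Hk1 had the largest difference with E2 and passed the study's threshold. It ranged from 132 to 217 CPM in HFD+E2 M (median 175) and from 96.1 to 187 in HFD M (median 122), with overlap, and its log2 fold change was 0.43 (standard error 0.16, 95% interval 0.10 to 0.76, unadjusted p = 0.0140 and adjusted p = 0.460 from edgeR). Gpi1 ranged from 295 to 431 CPM with E2 and from 198 to 385 without (0.34, standard error 0.14, adjusted p = 0.465 from edgeR). Pfkp ranged from 251 to 310 CPM with E2 and from 208 to 304 without (0.24, standard error 0.11, adjusted p = 0.476 from edgeR). Both groups overlapped for these 2 genes.

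The other 6 members had no unadjusted p under 0.05. Pfkl, which acts at the same step as Pfkp, was at 0.33 with a wide interval (-0.13 to 0.78), Pkm at 0.20, Eno1 at 0.18 and Aldoa at 0.14. The 2 members below 0 were Ldha (-0.06, 95% interval -0.32 to 0.21) and Pgk1 (-0.37, 95% interval -1.01 to 0.27). The median of the 10 genes was 0.22 and that of all 15010 genes tested 0.00, with 50.2% of all genes above 0 and 8 of the 10 members. Of all genes, 0.00666% were called, 10.2% had an unadjusted p under 0.05, 4.83% had it and were higher with E2, 5.87% passed the study's threshold and 0.413% did not overlap. Of the members, 0, 4, 4, 1 and 1 did. The members are not independent: over the 22 libraries numbered 109 to 130, introduced below, the Pearson correlation of log2 CPM was 0.77 between Hk1 and Gpi1 and 0.64 between Gpi1 and Pfkp, a description of libraries that share their processing.

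Markers of other cell types also differed with E2, and none of those named here was called. Of the 8 markers of proliferating cells, 6 were lower at the study's threshold (median log2 fold change -0.71), and their summed level was 48.1 to 92.0 TPM with E2 and 84.7 to 197 TPM in HFD M. Of the 7 goblet cell markers tested, 3 were higher (median 0.42, 3913 to 5859 TPM with E2 and 2576 to 5853 TPM without). Of 5 skeletal muscle markers tested, 3 were lower (median -2.67, with the whole list at up to 45.3 TPM with E2 and 14.3 to 542 TPM without), and of 5 squamous markers tested, 3 were lower (median -0.73, 87.0 to 166 TPM and 119 to 941 TPM), with Sprr3 and Ivl at 0 in the treated mice. The part of proliferating cells, goblet cells and skeletal muscle in the values of the 10 genes was not tested. With the squamous score in the fit, 1 member had an unadjusted p under 0.05, and with the smooth muscle score 2 did. The count of all genes past the study's threshold also fell, from 881 of 15010 to 480 and 568 in these fits.

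**Figure D3:**
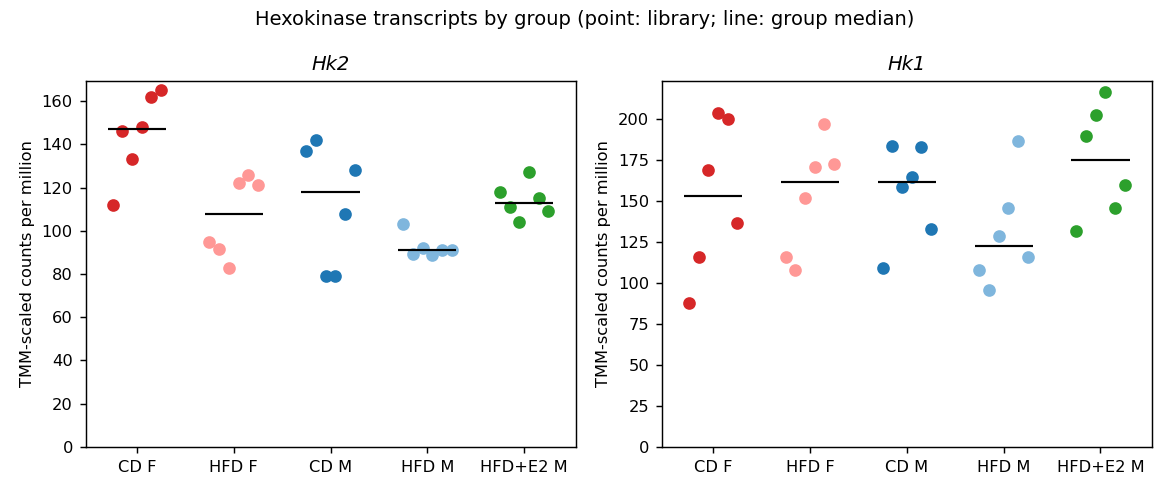
CPM (from 0) of Hk2 and Hk1 in the 5 groups; each point is a library and each line the median of 6. For Hk2 the HFD+E2 M points (104 to 127) lie above all HFD M points (88.6 to 103), and for Hk1 these groups overlap.

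The difference with E2 depended on the scale. In TPM, Hk2 had a median of 26.3 with E2 and 23.5 without, ranging from 20 to 31.6 and from 18.9 to 31.0, so that the groups overlapped, and limma on log2(TPM + 1) gave 0.10 (unadjusted p = 0.495). On that scale Hk1 was at 0.23, and no member had an unadjusted p under 0.05. The 10 genes took a median of 0.322% of the counts with E2 and 0.274% without, but summed to a median of 1871 and 1983 TPM. Leaving out 1 library moved the number of members higher at an unadjusted p under 0.05 from 4 to between 2 and 7. It was 7 without replicate 5 of HFD M. It was 2 without replicate 1 or 2 of HFD M or replicate 2 or 4 of HFD+E2 M. Of all genes, 881 passed the study's threshold in the main fit and 1391 without replicate 5 of HFD M. In the fits with 2 members, 557 to 727 genes passed it. Hk1 lost the study's threshold without replicate 1 or 2 of HFD M or replicate 3 or 4 of HFD+E2 M. Without the 2 HFD M libraries high in squamous markers, Hk2 was at 0.28 (unadjusted p = 0.0220) and Hk1 at 0.38 (unadjusted p = 0.0410).

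Pgk1 and Ldha varied with the sample number in the labels. The libraries are numbered from 101 to 130 and each group is spread over the numbers. The 8 libraries numbered 101 to 108 (2 CD F, 1 CD M, 2 HFD F, 2 HFD M and 1 HFD+E2 M) had 94.9 to 155 TPM of Pgk1, and the other 22 had 39.6 to 86.9, without overlap. In CPM the ranges were 54.8 to 90.2 and 29.8 to 57.2. Ldha was at a median of 543 CPM in the 8 libraries (445 to 727) and 456 in the 22 (351 to 587). Hk1 went the other way, with a median of 109 CPM (87.7 to 132) against 170 (116 to 217), and so did Gpi1, with 244 CPM (198 to 295) against 323 (245 to 431). What the numbers stand for is not given in the sources used here, and the division after 108 was chosen after the values were seen, so these are descriptions without a test.

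**Figure D4:**
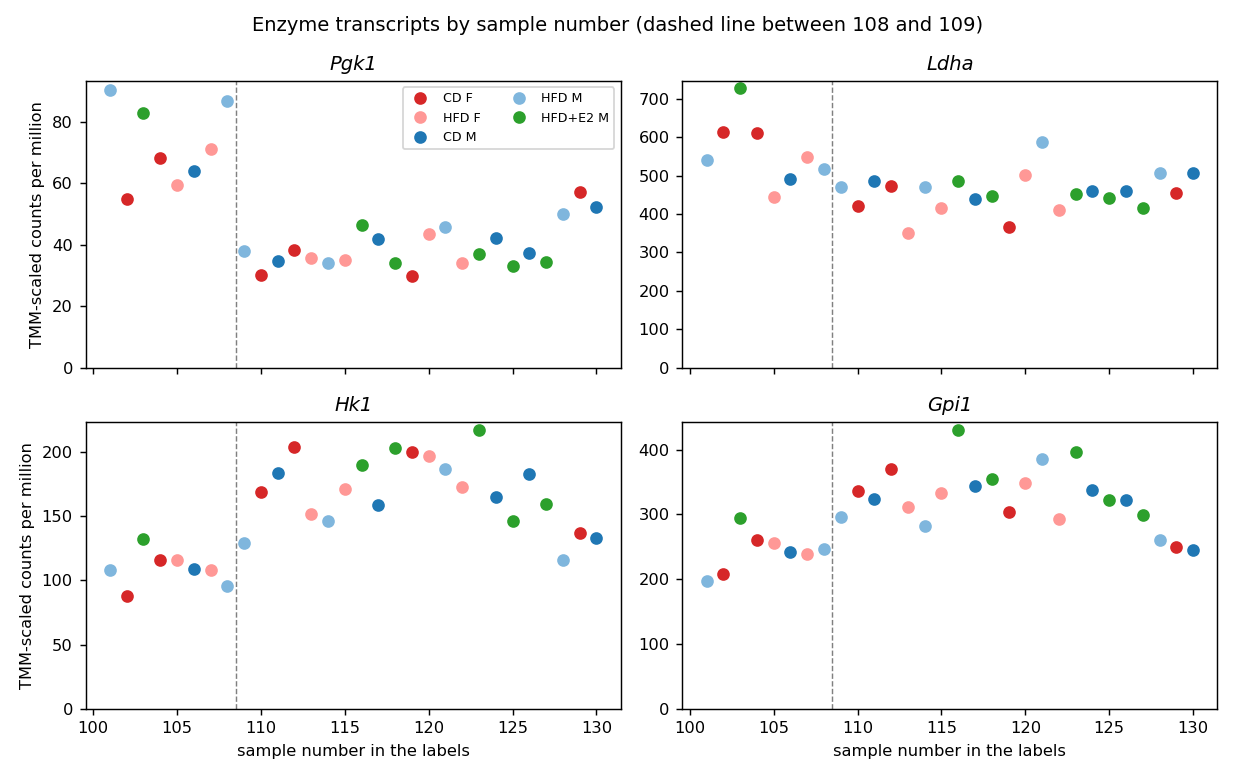
CPM (from 0) of Pgk1, Ldha, Hk1 and Gpi1 against the sample number in the labels; each point is a library, coloured by group, and the dashed line lies between 108 and 109. Pgk1 sits at 54.8 to 90.2 in the 8 libraries to the left, which come from all 5 groups, and at 29.8 to 57.2 in the 22 to the right.

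With the group means removed, the 8 libraries differed from the 22 by 0.85 on the log2 scale for Pgk1, 0.30 for Ldha, -0.03 for Hk2, -0.05 for Eno1, -0.18 for Aldoa, -0.19 for Pfkp, -0.24 for Pkm, -0.38 for Gpi1, -0.41 for Pfkl and -0.58 for Hk1. Among 9507 genes with a mean log2 CPM over 3, 0.295% had a difference as high as that of Pgk1, 13.7% one as high as that of Ldha and 4.04% one as low as that of Hk1. Hk2 had the value nearest to 0. Across the 9241 of these genes with an annotated transcript, the difference went with the GC content of the transcript (Pearson r = -0.49 and Spearman rho = -0.48, across genes, which are not independent replicates). Pgk1 has 49.7% GC and Ldha 51.5%, against 53.5% for Gpi1 and 56.4% for Hk1, but Pfkp has the lowest value, 48.9%, and a difference below 0. The part of GC content in these values was not tested.

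**Figure D5:**
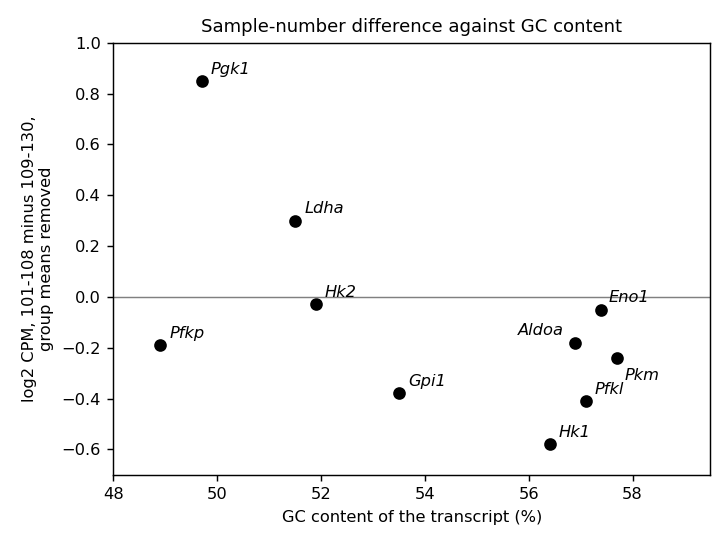
Difference in log2 CPM between the 8 libraries numbered 101 to 108 and the 22 numbered 109 to 130, with group means removed, against the GC content (%) of the longest coding transcript of each of the 10 enzymes. Pgk1 (49.7% GC) is highest at 0.85, Hk1 (56.4% GC) is lowest at -0.58 and Pfkp (48.9% GC) lies at -0.19.

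In the comparison of E2 with vehicle, taking the numbers into account moved the value of Pgk1 more than that of Hk2. The log2 fold change of Pgk1 was -0.37 over all 12 libraries and -0.16 with the number as a covariate. That of Hk1 was 0.43 and 0.36, and that of Hk2 0.30 and 0.32. Within the libraries numbered 109 to 130 alone, Hk2 was at 0.34 with E2 (unadjusted p = 0.00301), at -0.41 on HFD in females (unadjusted p = 0.00476) and at 0.49 in CD F over CD M (unadjusted p = 0.0112). It was at 0.34 in HFD F over HFD M (unadjusted p = 0.0145) and at -0.25 on HFD in males (unadjusted p = 0.141). No member was called in any comparison with these libraries alone or with the covariate. The median of the 10 genes with E2 went from 0.22 to 0.07 in these libraries, and the members with an unadjusted p under 0.05 from 4 to 2, Hk2 and Hk1 (0.36, unadjusted p = 0.0238). Gpi1 was then at 0.25 (unadjusted p = 0.0763), Pfkp at 0.15 (unadjusted p = 0.209) and Pfkl at 0.05, and the signs of Aldoa (-0.01) and Eno1 (-0.05) turned.

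The 8 libraries numbered 101 to 108 were fitted together, with 1 mean per group, so that the single CD M and HFD+E2 M libraries are assumed to vary like the others. No member was called in them either. With E2, the median of the 10 genes was 0.44, and 4 members passed the study's threshold, against 1571 of 16957 genes tested. They were Pfkl (1.17), Eno1 (0.89), Aldoa (0.59) and Pfkp (0.51), while Hk2 was at 0.29 (unadjusted p = 0.198) and Hk1 at 0.36 (unadjusted p = 0.111). All of these values set 1 treated mouse against 2 others. Hk2 was at -0.47 on HFD in females (unadjusted p = 0.0222), at -0.49 on HFD in males (unadjusted p = 0.0397) and at -0.07 between CD F and CD M (unadjusted p = 0.753).

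Of the genes around the pathway, 83 were examined in addition to the 10. They comprised other glycolytic enzymes, regulators of the flux, transporters of hexose and lactate, genes of pyruvate entry into mitochondria, gluconeogenesis, the pentose phosphate pathway and transcription factors known to act on glycolytic genes. Apart from the comparison of CD F with CD M, 0 of the 72 to 74 genes that could be tested were called by edgeR in the comparisons and the interaction. At the study's threshold there were 0 of 72 between the sexes on HFD and 2 of 72 higher on HFD in females. There were 1 of 73 higher on HFD in males and 3 of 72 higher with E2. The shares of all genes past it were, in the same order, 3.09%, 3.67%, 2.90% and 5.87%. Named after their values were seen, the genes past it on HFD were the fructose transporter Slc2a5 in both sexes and the pyruvate dehydrogenase kinase Pdk4 in females. With E2 they were Hkdc1, Pdk2 and Pdp2. The medians of the genes tested lay between -0.01 and 0.03 in the 5 comparisons.

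The genes whose log2 CPM over the 30 libraries was most like the mean standardized log2 CPM of the 10 members were Neu1 (Pearson r = 0.85), Lamb3 (0.85), Slc2a1 (0.84), Tonsl (0.84) and Elmo3 (0.82). Slc2a1 encodes the glucose transporter GLUT1, Neu1 a lysosomal sialidase and Lamb3 a laminin chain. Within the 22 libraries numbered 109 to 130 their correlations were 0.72 to 0.79. The libraries share their sequencing and processing, and all 5 genes were, like 8 of the members, lower in the libraries numbered 101 to 108.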

How the data were processed

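Colon RNA of 30 mice was sequenced with a stranded total RNA kit after ribosomal RNA depletion. Reads were aligned by the authors with STAR (GRCm38, mm10), and featureCounts gave the deposited raw counts of 46078 genes. The deposited TPM values were made by the authors with StringTie, and rows of a gene listed more than once (614 over all files) were summed here. Groups were taken from the titles, diet, sex and treatment of the labels.

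Counts of each pair of groups (12 libraries), and of 24 libraries for the sex by diet term, were tested with the robust quasi-likelihood method of edgeR 4.0.16 (R 4.3.3) after TMM scaling and the filterByExpr minimum, and p-values were adjusted by Benjamini-Hochberg over all genes tested. Standard errors and 95% intervals follow from the F statistic. CPM values carry a prior count of 2. Alternatives used DESeq2 1.42.0 and limma 3.58.1, other filters, covariates and single libraries left out, and the fit was tested on simulated data. Promoters are from RefSeq (GRCm38.p6), and 51-base stretches and GC content from GENCODE vM21 transcripts of the same assembly.

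The members and lists were chosen with earlier results of these data known. The text gives all 10 members in every comparison, other genes of the lists where called, other isozymes for their levels (some genes of the lists are not reported here), and the 5 genes most like the members. Intervals cover the spread between these mice and no other source of error. In total, 4 alternatives were added after the data were seen: the sample number as a covariate, the libraries numbered 109 to 130 alone, those numbered 101 to 108 alone (8 libraries in 1 fit), and the exclusion of the 6 libraries high in squamous markers.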

Additional observations from a re-analysis of the deposited data

Results flagged for a closer look

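In each of the 50 combinations of an enzyme and a group, the highest and the lowest of the 6 TPM values were compared with the nearest other value by Dixon's test, which chance alone passes in about 1 in 20 groups, and 6 passed. In HFD+E2 M, replicate 1 stood above the others for Pgk1 (142 TPM, the next at 64.4), Ldha (677 TPM, the next at 422) and Eno1 (124 TPM, the next at 88.3). This library is the only one of its group numbered below 109. In the same group, replicate 4 stood above the others for Hk1 (65.9 TPM, the next at 48.9). In HFD M, replicate 6 stood above the others for Eno1 (104 TPM, the next at 80.4). In HFD F, replicate 3, the library highest in squamous markers, stood below the others for Hk2 (19.6 TPM, the next at 26.0). Without it, the log2 fold change of Hk2 on HFD in females no longer passed the study's threshold.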

How the results depend on the processing

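None of the 10 genes was called at an adjusted p under 0.05 in the 5 comparisons and the interaction. This held under all alternatives with 3 exceptions. DESeq2 called 1 with E2 (Hk2), among 38 of all genes. Between CD F and CD M, the replicate block called 1 (Pfkp), among 941 of 14922 genes. The smooth muscle score called 2 there (Pfkp, Gpi1), among 310 of 14922. The main fit called 435 genes in that comparison. At the study's threshold, the number between CD F and CD M went from 0 to 5 with the smooth muscle score (which turned the sign of Hk1 to 0.65, of Gpi1 to 0.47 and of Pgk1 to -0.66), to 1 with the surface colonocyte score and to 1 in libraries numbered 109 to 130. Of all 14922 genes tested, 1366 passed it in the main fit, 2127 with the smooth muscle score and 1450 with the surface colonocyte score. In libraries numbered 109 to 130, 1546 of 15036 did. On HFD in females it went from 1 to 0 on log2(TPM + 1), on log2(TPM + 0.1) and with the squamous score. With E2 it went from 1 to 0 on both TPM scales, with the squamous or smooth muscle score, with the sample number as covariate, in libraries numbered 109 to 130 and without the 6 libraries high in squamous markers. In the 8 libraries numbered 101 to 108, it was 3 between the sexes on HFD, 3 on HFD in males and 4 with E2, instead of 0, 0 and 1. In that fit, 1541 of 16957 genes tested passed it between the sexes on HFD, against 469 of 15179 in the main fit. The comparisons on HFD in males and with E2 each set 1 library against 2 there, so their counts cannot show a group difference. The cause of these changes in number was not tested. With 1 library left out, the numbers at the study's threshold were 0 to 1 between CD F and CD M, 0 to 1 on HFD in females and 0 to 3 with E2. The sign of a member differed from the reported one in 95 of 880 values of the other alternatives, each time for a value of at most 0.37 in size.

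The replicate numbers did not meet the rule for pairing, a correlation over 0.1 in every pair of same-numbered libraries' deviations from their group means. It was over 0.1 in 5 of 6 pairs between CD F and CD M, 2 between the sexes on HFD, 5 on HFD in females, 5 on HFD in males and 3 with E2, with a range of -0.41 to 0.67. The replicate number follows the sample number, which moved with the levels of several members. With the replicate number as a block, Pfkp between CD F and CD M was at 0.23 (adjusted p = 0.0410 from edgeR), and 7, 3, 1, 7 and 2 of 12 libraries correlated best with their own number in the comparisons of the sexes on CD, of the sexes on HFD, of HFD in females, of HFD in males and of E2. At 6 libraries per group, the interval of Pgk1 with E2 reached from -1.01 to 0.27, so this gene's differences were the least precise of the 10 in that comparison.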
